A study of Mus musculus with 6 samples.

Results

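Heat shock proteins and J-domain proteins are molecular chaperones, which bind unfolded or partly folded proteins and help them to fold, to cross membranes or to be degraded. HSP70 proteins do this in cycles of ATP hydrolysis: J-domain proteins bring clients and trigger hydrolysis, and HSP110 and BAG proteins release the nucleotide. HSP90 acts on clients that are closer to their final fold, the HSP60 and HSP10 chaperonin works inside mitochondria, small heat shock proteins hold clients without ATP, and the HSF transcription factors switch on the inducible members under stress. The genes were chosen by symbol: HSP70, HSP110 and HSP90 genes, small heat shock protein genes, the mitochondrial chaperonin pair, numbered Dnaja, Dnajb and Dnajc genes, Bag1 to Bag6, and Hsf1 and Hsf2. Of 23185 genes with a symbol, 79 were found, of which 1 is a pseudogene (Dnajc19-ps); Hsf1 and Hsp90ab1 are not analysed here. They were 11 HSP70 genes, 3 of the HSP110 type, 2 HSP90 genes, 8 small heat shock protein genes, 2 chaperonin genes, 4 Dnaja, 13 Dnajb and 29 Dnajc genes, 6 Bag genes and 1 Hsf gene.

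The cells were a C57BL/6J mouse line of group 2 innate lymphoid cells (ILC2s), lymphocytes without antigen receptors that secrete type 2 cytokines, kept in 10 ng/ml each of the cytokines IL-2 and IL-33. A lentiviral CRISPR construct with GFP carried a guide against Myc in 1 group and a non-targeting guide in the other, so both groups were transduced, and GFP-positive cells were sorted on day 6. Total RNA was hybridised to 6 Affymetrix arrays, 3 labelled Myc knockout and 3 control, to ask which transcripts differ between the groups. The labels give neither clones nor separate cultures, so a knockout sample may be a mixed pool of edited cells. The p-values therefore take in the spread from array to array, and that spread may be technical.

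Values are RMA log2 intensities, which are relative to the other arrays, and the medians of the arrays lay between 3.27 and 3.34. Myc itself was not lower: it stood at 9.55, 9.79 and 9.73 in the arrays labelled Myc knockout, against 9.27, 9.33 and 9.39 in the control arrays (log2 difference 0.36 ± 0.080 SE; limma's adjusted p = 0.127; exact two-sided permutation p = 0.1, the smallest that 3 against 3 arrays allow). A lower Myc mRNA level, which would have backed the label, was not seen. The arrays measure mRNA and neither editing of the gene nor MYC protein, so this level cannot decide whether the knockout worked. Every direction below rests on the labels. Of 12 ILC2 markers 11 lay above the array median on at least 1 array. Thy1 was among these but lay below the median on 3 of the 6 arrays, and Il17rb lay below it on all 6. Among the brighter markers, Gata3 averaged 9.32 and 9.57 and Il13 11.29 and 11.05 in the arrays labelled Myc knockout and in control arrays. The groups did not overlap for 7 of the 12 (58.3%, against 19.8% of all genes), 4 higher and 3 lower. Il5 rose (log2 difference 0.49; limma's adjusted p = 0.0386). Among markers of other cells, the summed log2 level of 5 myeloid markers ran from 16.9 to 17.8 in the arrays labelled Myc knockout and from 18.0 to 18.5 in control arrays, without overlap. That of 5 mast cell and basophil markers ran from 14.4 to 14.9 in the arrays labelled Myc knockout and from 14.9 to 15.4 in control arrays, without overlap before rounding. That of 3 ILC3 markers ran from 6.16 to 6.62 in the arrays labelled Myc knockout and from 5.07 to 5.41 in control arrays, also without overlap, and 1 of them rose (Il17a). Each gap rested on 1 gene: without Itgam (log2 difference −0.63), Mcpt8 (−0.47) and Il17a (0.95), the summed levels of the remaining markers overlapped between the groups in all 3 lists. None of these markers is at 0 on this scale, and 3 of the 5 myeloid, 3 of the 5 mast cell and basophil and 2 of the 3 ILC3 markers lay below the array median on all 6 arrays. The summed levels of 6 T cell, 4 B cell and 5 NK cell and ILC1 markers overlapped between the groups. The part of these cells in the results below was not tested, and fewer cells of a type cannot be told apart from less RNA per cell.

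Across the chaperone genes only Hspa1a passed the threshold, a Benjamini-Hochberg adjusted p under 0.05 over all 23185 genes in limma. In all, 1 member fell (1.27%) and 0 rose, where 0.198% of all genes fell and 0.254% rose. The unadjusted p was under 0.05 for 6 members with positive and 6 with negative differences, 7.59% each way, where 6.97% of all genes were higher and 7.91% lower by that rule. Median centring of the arrays moved the all-gene counts at that p to 1216 higher and 2227 lower, where the deposited scaling gave 1616 and 1834, and those of the members to 3 positive and 9 negative, so the even split depends on the scaling. The values of the groups did not overlap for 19 of the 79 (24.1%), against 19.8% of all genes. Of these, 11 were higher (13.9%, against 9.25% of all genes) and 8 lower (10.1%, against 10.6%). The log2 difference, arrays labelled Myc knockout minus control, was positive for 41 members and negative for 38, with a median of 0.0050, beside a median of 0.0077 over all genes. It was smaller than 0.2 in either direction for 65 of the 79 (82.3%), against 79.15% of all genes.

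**Figure D1:**
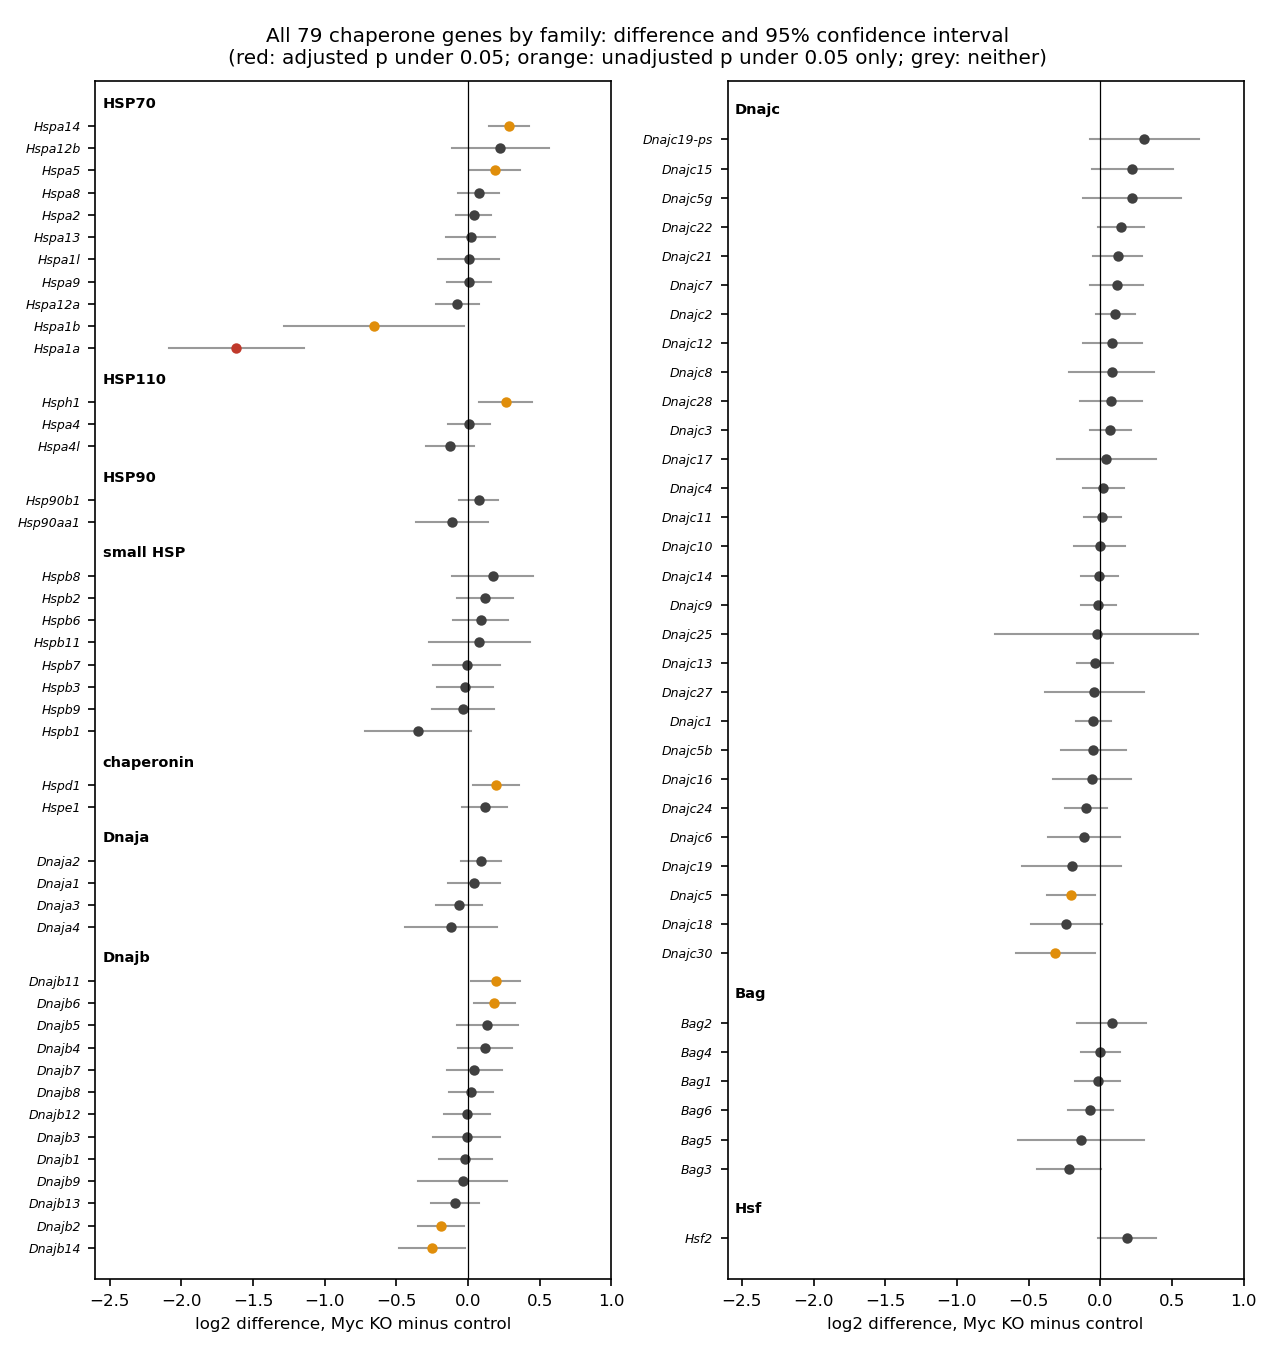
Log2 difference (x axis, arrays labelled Myc knockout minus control) of each of the 79 genes, grouped by family, with its 95% confidence interval from limma. Hspa1a, at −1.62, is the only gene in red (adjusted p under 0.05), and the 11 genes in orange passed only an unadjusted p under 0.05.

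Among the HSP70 genes, Hspa1a fell, and its neighbour Hspa1b had a negative difference that did not pass. Hspa1a, which encodes the main inducible cytosolic HSP70, stood at 3.07, 3.08 and 3.78 in the arrays labelled Myc knockout, against 4.81, 5.02 and 4.96 in the control arrays. The highest of the arrays labelled Myc knockout lay about a full log2 unit below the lowest control array, and replicates 1 and 2 lay below the array medians. The means were 3.31 ± 0.41 and 4.93 ± 0.11 (SD, n = 3 each), a log2 difference of −1.62 ± 0.20 SE (limma's adjusted p = 0.0361), which was the most negative among all 23185 genes. Read as a fold change it was 3.07-fold lower (95% confidence interval 2.21 to 4.26) on the RMA scale, and with 2 of the values under the array median the size of the fold is uncertain. The call was lost when any 1 control array was left out, and also without the first or the second array labelled Myc knockout (limma's adjusted p = 0.135 to 0.180), while the log2 difference stayed between −1.85 and −1.50 and the adjusted p was 0.0483 without replicate 3.

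Hspa1b, the neighbouring copy that encodes a nearly identical protein, gave 3.28, 4.30 and 4.04 in the arrays labelled Myc knockout, against 4.77, 4.41 and 4.41 in the control arrays. The groups did not overlap, but the gap between replicate 2 of the arrays labelled Myc knockout and the 2 lower control arrays was small beside the spread of the arrays labelled Myc knockout. The means were 3.87 ± 0.53 and 4.53 ± 0.21 (SD, n = 3 each), a log2 difference of −0.66 ± 0.26 SE that did not pass (limma's adjusted p = 0.316), and leaving out the first array labelled Myc knockout gave −0.36. In Hspa1a, by contrast, the first and second of these arrays were nearly equal and the third was the highest. Hspa1a and Hspa1b can share probes, so the 2 rows may not be separate measurements. Hspa1l, the third gene of the chromosome 17 cluster, whose product is known mainly from testis, lay below the array median on all 6 arrays, and its log2 difference was 0.0050 ± 0.089.

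The promoters of Hspa1a and Hspa1b are shown because these are the 2 members with the most negative differences; they are the 250 bases before each RefSeq start (GRCm38.p6). Capitals mark 2 neighbouring units of the heat shock element, the site that HSF1 binds, written GAANNTTC or TTCNNGAA.
Hspa1a (chr17:34972157-34972406, minus strand): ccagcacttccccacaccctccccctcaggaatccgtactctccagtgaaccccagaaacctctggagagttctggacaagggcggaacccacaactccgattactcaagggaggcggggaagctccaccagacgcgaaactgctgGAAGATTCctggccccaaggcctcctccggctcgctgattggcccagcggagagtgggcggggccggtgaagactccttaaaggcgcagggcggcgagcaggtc
Hspa1b (chr17:34959239-34959488, minus strand): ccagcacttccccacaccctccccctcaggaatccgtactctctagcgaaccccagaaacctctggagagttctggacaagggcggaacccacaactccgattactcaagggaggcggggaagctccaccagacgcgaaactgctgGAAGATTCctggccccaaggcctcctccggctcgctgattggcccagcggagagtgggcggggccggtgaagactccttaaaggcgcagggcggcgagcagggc
The 2 stretches are identical at 247 of 250 bases (98.8%), and the marked element begins 104 bases before the start in both.

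**Figure D2:**
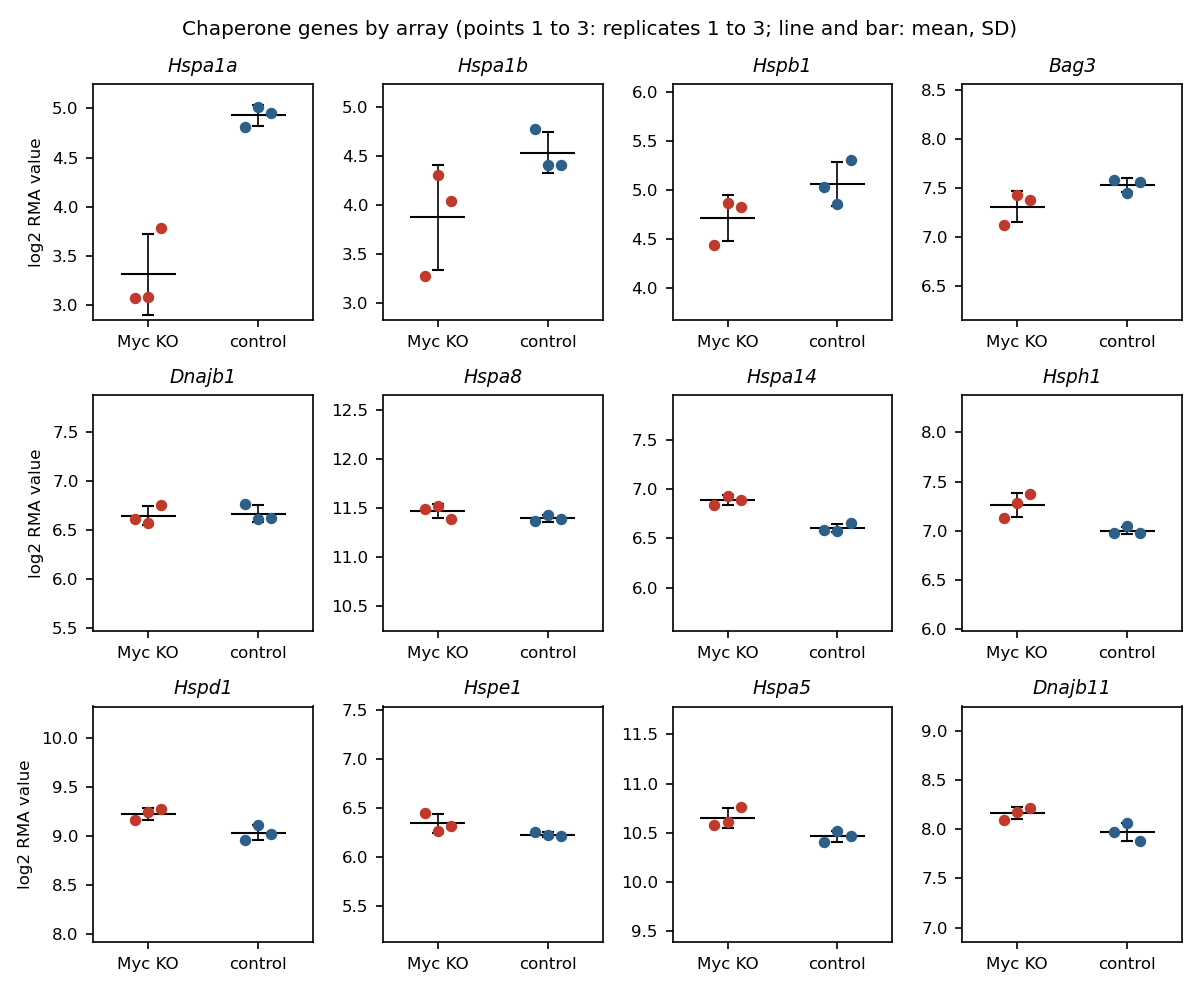
Log2 RMA value (y axis, each panel spanning the same range) of 12 chaperone genes in the arrays labelled Myc knockout (red, left) and control arrays (blue, right), with points for replicates 1 to 3 from left to right and the mean with its SD in black. Hspa1a at 3.07 to 3.78 against 4.81 to 5.02 shows the widest gap, while Hspa8 and Dnajb1 overlap between the groups.

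The other HSP70 genes showed no difference of that size. Hspa8, which encodes the constitutive cytosolic HSP70, was at 11.48, 11.52 and 11.39 in the arrays labelled Myc knockout, against 11.36, 11.43 and 11.39 in the control arrays, with overlapping groups and a log2 difference of 0.07 (95% confidence interval −0.07 to 0.22). Hspa9, the mitochondrial HSP70 gene, differed by 0.0048 ± 0.064, and its sign turned under median centring, cyclic loess and array weights. Hspa5 encodes BiP, the HSP70 of the endoplasmic reticulum. It was at 10.58, 10.61 and 10.77 in the arrays labelled Myc knockout, against 10.40, 10.52 and 10.46 in the control arrays. These groups did not overlap, but the log2 difference of 0.19 ± 0.072 did not pass (limma's adjusted p = 0.303). Hspa14, whose product takes part in the ribosome-associated complex, had the smallest p after Hspa1a: 6.84, 6.94 and 6.90 in the arrays labelled Myc knockout, against 6.59, 6.57 and 6.66 in the control arrays. The groups did not overlap, and the log2 difference was 0.29 ± 0.058 (limma's adjusted p = 0.104). It passed when the prior variance followed the intensity (adjusted p = 0.0462) and when only the brighter genes were tested (adjusted p = 0.0369). Hspa2, Hspa12a, Hspa12b and Hspa13 differed by between −0.07 and 0.23.

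Of the HSP110 genes, Hsph1 was the one whose groups did not overlap. Hsph1 encodes a nucleotide exchange factor for HSP70 that heat shock induces, and it stood at 7.13, 7.29 and 7.37 in the arrays labelled Myc knockout, against 6.98, 7.05 and 6.98 in the control arrays. Its log2 difference of 0.26 ± 0.076 ran opposite to those of Hspa1a and Hspa1b and did not pass (limma's adjusted p = 0.205). The related genes Hspa4 and Hspa4l differed by 0.0074 ± 0.062 and −0.13 ± 0.071, and the sign of Hspa4 turned under median centring. Of the HSP90 genes, Hsp90b1, which encodes GRP94 of the endoplasmic reticulum, averaged 11.08 ± 0.052 and 11.01 ± 0.023 in the arrays labelled Myc knockout and in control arrays (SD, n = 3 each; log2 difference 0.07, 95% confidence interval −0.06 to 0.21). Hsp90aa1, the inducible cytosolic form, was at 3.92, 4.12 and 4.17 in the arrays labelled Myc knockout, against 4.36, 4.07 and 4.11 in the control arrays. These groups overlapped, and the log2 difference was −0.11 ± 0.11. The values of Hsp90aa1 lay much nearer the array medians (3.27 to 3.34) than those of Hsp90b1. How well its probes respond was not tested.

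Both mitochondrial chaperonin genes had small positive differences. Hspd1, which encodes HSP60, was at 9.16, 9.25 and 9.27 in the arrays labelled Myc knockout, against 8.96, 9.11 and 9.02 in the control arrays, while Hspe1, which encodes its HSP10 lid, was at 6.45, 6.27 and 6.31 in the arrays labelled Myc knockout, against 6.26, 6.22 and 6.21 in the control arrays. Neither gene's groups overlapped, yet the log2 differences of 0.19 ± 0.067 and 0.11 ± 0.067 did not pass (limma's adjusted p = 0.263 and 0.467). The genes lie head to head and their RefSeq promoter windows overlap. Both windows hold the same run of heat shock element units, shown here as 30 bases with the run in capitals beside the element of Hsph1, which lies 36 bases after an annotated start.
Hspe1 (chr1:55088053-55088082, plus strand, GRCm38.p6): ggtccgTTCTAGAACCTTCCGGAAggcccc
Hsph1 (chr5:149636287-149636316, minus strand, GRCm38.p6): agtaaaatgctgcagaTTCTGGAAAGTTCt

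Small heat shock protein genes gave no call in either direction. Hspb1, the gene of HSP27 and one of the heat-inducible members, was at 4.44, 4.87 and 4.82 in the arrays labelled Myc knockout, against 5.03, 4.86 and 5.30 in the control arrays. The groups overlapped narrowly and the log2 difference of −0.35 ± 0.15 did not pass (limma's adjusted p = 0.354). Hspb6 differed by 0.09 ± 0.079. Of the 8 genes, 4 (Hspb2, Hspb3, Hspb7 and Hspb8) lay below the array median on all 6 arrays, so a lack of change cannot be read from them. Hspb9 and Hspb11 differed by −0.04 and 0.08. The 8 were placed in this family by symbol alone, Hspb11 included, and not by what their products do.

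The J-domain genes, which set where and on which clients HSP70 works, split evenly: 22 of 46 had positive and 24 negative log2 differences, with a median of −0.0062. Of the 46, 0 passed the threshold, and 2 positive and 4 negative differences had an unadjusted p under 0.05. These are 4.35% and 8.70%, against 6.97% and 7.91% of all genes. Among the Dnaja genes, cytosolic and mitochondrial partners of HSP70, Dnaja2 differed by 0.09 ± 0.059 and Dnaja1 by 0.04 ± 0.076, and Dnaja3 and Dnaja4 by −0.06 and −0.12. Dnajb1, the gene of the heat-inducible HSP40, was at 6.61, 6.57 and 6.76 in the arrays labelled Myc knockout, against 6.77, 6.61 and 6.62 in the control arrays. The groups overlapped, and the 95% confidence interval of the log2 difference was −0.21 to 0.16, beside −2.09 to −1.14 for Hspa1a. Dnajb6, whose product suppresses aggregation of polyglutamine proteins, gave 4.20, 4.29 and 4.20 in the arrays labelled Myc knockout, against 4.02, 4.10 and 4.02 in the control arrays. Dnajb11, a partner of BiP, gave 8.10, 8.17 and 8.22 in the arrays labelled Myc knockout, against 7.97, 8.06 and 7.88 in the control arrays. Neither gene's groups overlapped, and the log2 differences of 0.18 ± 0.060 and 0.19 ± 0.071 did not pass (limma's adjusted p = 0.248 and 0.287).

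Dnajb2 and Dnajb14 had log2 differences of −0.19 ± 0.067 and −0.25 ± 0.096 that did not pass, and Dnajb2 lay below the array median on all 6 arrays, as did Dnajb3, Dnajb7 and Dnajb8. The other Dnajb genes differed by between −0.09 (Dnajb13) and 0.13 (Dnajb5), among them Dnajb9, another partner of BiP, at −0.04 ± 0.13. Among the Dnajc genes the smallest p belonged to Dnajc5, which encodes cysteine string protein, and Dnajc30, which encodes a mitochondrial protein. Dnajc5 was at 6.96, 7.06 and 7.11 in the arrays labelled Myc knockout, against 7.27, 7.16 and 7.31 in the control arrays (log2 difference −0.20 ± 0.071), and these groups did not overlap. Dnajc30 differed by −0.31 ± 0.11 with overlapping groups. Limma's adjusted p was 0.265 and 0.285. The remaining Dnajc genes differed by between −0.24 (Dnajc18) and 0.31 (the pseudogene Dnajc19-ps). Dnajc2, another component of the ribosome-associated complex beside Hspa14, differed without overlap by 0.10 ± 0.056, and Dnajc9, which encodes a chaperone of histones, differed by −0.01 ± 0.051. Dnajc25 varied most among the arrays labelled Myc knockout, at 4.26, 5.19 and 5.41, against 4.92, 5.22 and 4.81 in the control arrays.

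Dnajb6 is one of the 4 genes of this set whose promoter window held 3 alternating units of the heat shock element, so its 250 bases before the first RefSeq start are shown with the element in capitals.
Dnajb6 (chr5:29735648-29735897, plus strand, GRCm38.p6): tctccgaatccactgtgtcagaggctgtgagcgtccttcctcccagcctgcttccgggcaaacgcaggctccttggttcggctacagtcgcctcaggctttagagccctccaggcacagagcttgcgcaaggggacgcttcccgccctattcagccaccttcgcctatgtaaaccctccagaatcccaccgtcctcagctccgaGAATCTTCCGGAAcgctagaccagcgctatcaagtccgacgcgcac
RefSeq windows from 250 bases before to 50 after a start were at hand for 64 of the 79 genes. The 3-unit element, in which GAA and TTC alternate with any 2 bases between neighbouring units, was searched on both strands and found for 4 of the 64 genes (6.25%), Hspd1, Hspe1, Hsph1 and Dnajb6, and for 0.662% of all 27025 genes with a window. These 4 genes had log2 differences of 0.19, 0.11, 0.26 and 0.18. In Hspa1a and Hspa1b the search found 2 exact units in a row. Units with a mismatched base were not counted, so a longer element with an imperfect unit would be missed. The shorter 2-unit match, which every 3-unit match contains, was found for 17 of the 64 genes (26.6%) and 17.0% of all genes. The E-box CACGTG, the core site of MYC with MAX, was found for 7 of the 64 genes (10.9%) and for 8.09% of all genes. The log2 differences of these 7 were 0.19 for Hspd1, 0.26 for Hsph1, 0.19 for Hsf2, 0.08 for Dnajc8, −0.04 for Dnajb9, −0.05 for Dnajc1 and −0.06 for Dnajc16. A match is a description of the sequence only.

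The Bag genes, whose products link HSP70 to nucleotide release and to degradation, had negative log2 differences in 5 of 6 cases, with a median of −0.044 that turned to 0.0096 without the first array labelled Myc knockout, and 0 passed in limma, also at an unadjusted p under 0.05. Bag3, the heat-inducible member that directs clients to autophagy, was at 7.13, 7.43 and 7.38 in the arrays labelled Myc knockout, against 7.58, 7.45 and 7.56 in the control arrays. The groups did not overlap, though replicate 2 of the arrays labelled Myc knockout nearly reached the lowest control array, and the log2 difference was −0.22 ± 0.094 (limma's adjusted p = 0.347), or −0.13 without the first array labelled Myc knockout. Bag1, Bag2, Bag4, Bag5 and Bag6 differed by −0.02, 0.08, −0.0011, −0.13 and −0.07, and Bag1 and Bag4 turned sign under cyclic loess. Hsf2, the gene of a heat shock factor that can pair with HSF1, was at 5.77, 5.86 and 5.92 in the arrays labelled Myc knockout, against 5.66, 5.79 and 5.54 in the control arrays, which overlapped (log2 difference 0.19 ± 0.083).

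Grouped by compartment after the values were seen, 5 of 8 listed genes of the endoplasmic reticulum had positive log2 differences (62.5%, against 52.2% of all genes). Their median was 0.044, from −0.05 for Dnajc1 to 0.19 for Dnajb11. The list is not complete: Dnajb14, Dnajc16 and Dnajc18, at −0.25, −0.06 and −0.24, were not in it. The count and the range hold for the 8 listed genes alone. Of 8 listed mitochondrial genes 5 were positive (62.5%, median 0.0086), from −0.31 for Dnajc30 to 0.22 for Dnajc15.

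**Figure D3:**
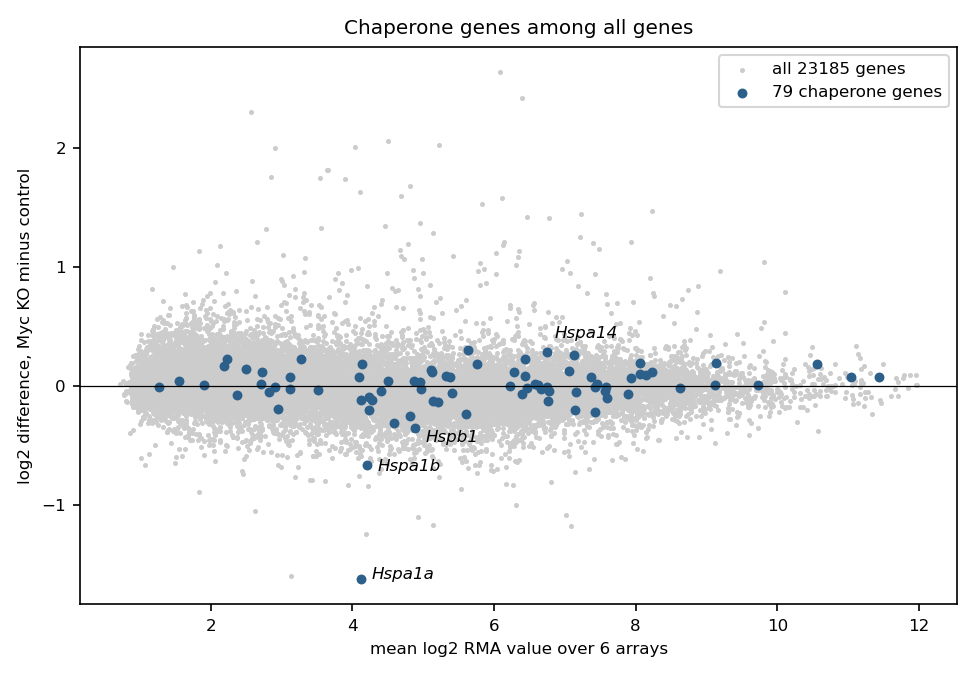
Log2 difference (y axis, arrays labelled Myc knockout minus control) against the mean log2 RMA value over the 6 arrays (x axis) for all 23185 genes in grey and the 79 chaperone genes in blue. Apart from Hspa1a at −1.62 and Hspa1b at −0.66, the chaperone genes lie within the body of the grey points.

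The helpers of these chaperones gave no call. Of 22 HSP90 co-chaperone and HSP70 helper genes, a list that includes Hspa14, 12 had positive log2 differences, the median was 0.06, and 0 passed. Besides Hspa14, the unadjusted p was under 0.05 for Ppid, the gene of a cyclophilin that binds HSP90 (0.44 ± 0.14), for Cdc37l1 (−0.25 ± 0.099) and for the mitochondrial exchange factor gene Grpel2 (−0.15 ± 0.059). These are 2 positive and 2 negative differences, 9.09% each way, against 6.97% and 7.91% of all genes. The groups did not overlap for 9 of the 22 helpers (40.9%, against 19.8% of all genes), 6 higher and 3 lower. Of 14 other genes linked to HSF1 and proteotoxic stress, 9 had negative differences (median −0.09), and 0 passed. The unadjusted p was under 0.05 for 3, all negative (21.4%, against 7.91% of all genes). The groups did not overlap for 7 of the 14, 1 higher and 6 lower, where they did not overlap for 19.8% of all genes. Ddit3, which encodes the stress factor CHOP, and Gadd45b differed by −0.40 ± 0.079 and −0.41 ± 0.085 (limma's adjusted p = 0.0999 and 0.111).

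Immediate early genes, which also respond to the handling of cells, gave wider differences between the same arrays. Of 11 such genes, 10 had positive log2 differences, with a median of 0.94. By limma 0 passed the threshold, and the unadjusted p was under 0.05 for 8 (72.7%), all positive, against 6.97% of all genes. Fos was at 6.30, 7.63 and 8.25 in the arrays labelled Myc knockout, against 4.76, 4.76 and 4.76 in the control arrays (log2 difference 2.63 ± 0.45; limma's adjusted p = 0.0796). The 3 arrays labelled Myc knockout differed widely in these genes: the median value above the control mean was 0.21, 1.06 and 1.54 in replicates 1, 2 and 3, against 0.08, −0.04 and −0.04 in the control arrays. Over the 79 chaperone genes the same median was −0.0072, 0.04 and 0.03, in the arrays labelled Myc knockout, against 0.0015, 0.02 and −0.02 in the control arrays. The arrays labelled Myc knockout gave −1.86, −1.85 and −1.14 for Hspa1a, and −1.25, −0.23 and −0.49 for Hspa1b. Replicate 1 of the arrays labelled Myc knockout also held the lowest value of its group, ties left out, for 40 of the 79 chaperone genes (50.6%), against 32.6% of all genes. The part of handling in the Hspa1a result was not tested.

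**Figure D4:**
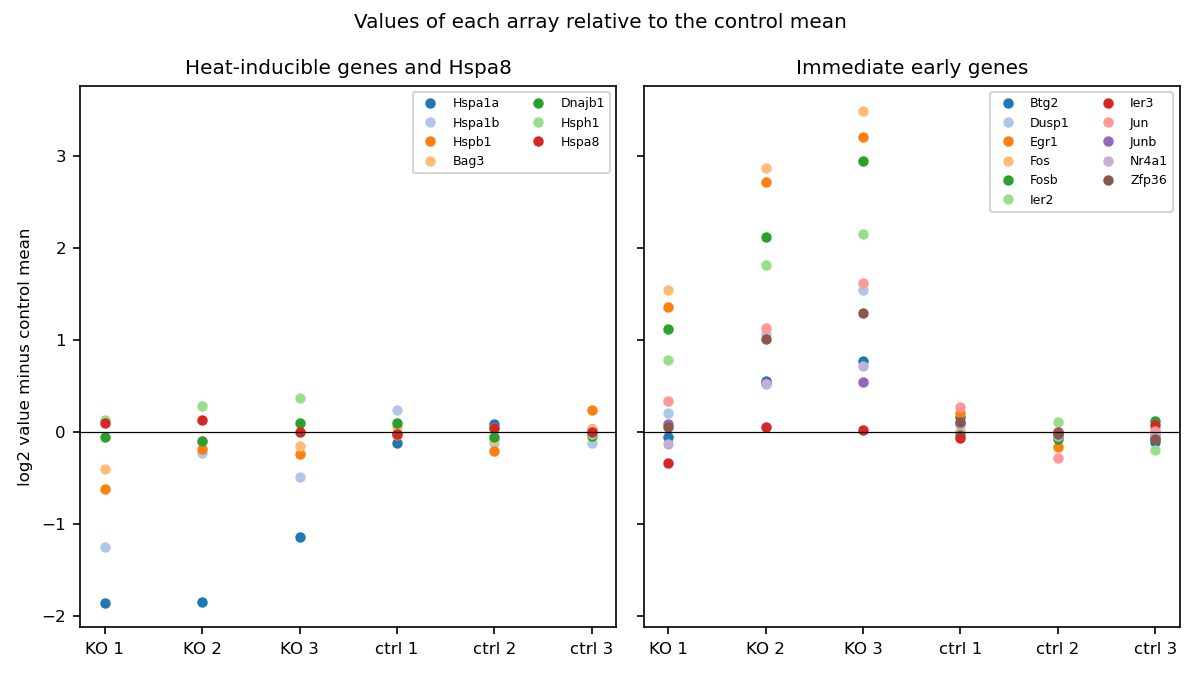
Log2 value of each array minus the control mean (y axis) for 7 chaperone genes (left panel) and 11 immediate early genes (right panel), with the 3 arrays labelled Myc knockout (KO) left of the 3 control arrays (ctrl). Hspa1a lies at −1.86 to −1.14 relative to the control mean in the arrays labelled Myc knockout, while Fos lies furthest above it in replicate 3.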

How the data were processed

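The deposited log2 values were made by the authors with RMA, and limma 3.14.4 is named too, per the submitters' processing notes. RMA removes background, gives all arrays the same distribution and summarises probes, so a shift of all transcripts together is lost. Array version, how probes were grouped and genome build were not given in the sources used here. Of 25206 probe sets, 23185 had 1 gene symbol in the platform annotation and 2021 had none; none had several. All 79 members matched a RefSeq gene table by gene number.

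Group differences came from limma 3.58.1 under R 4.3.3 (lmFit, eBayes, no trend, no covariate, no filter), two-sided, adjusted over all 23185 genes. On simulated data for this comparison of 3 against 3 arrays (23185 genes, 200 of them changed, 20 sets), 35.8% of genes changed by 0.5, 85.2% by 1 and 97.5% by 2 on the log2 scale were recovered, and 4.90% of calls were false. The simulated errors were independent and normal, with the same spread in both groups for each gene. Real spreads can differ: the SD of Fos was 0.99 in the arrays labelled Myc knockout and 0.00054 in the control arrays. The simulated rates therefore need not hold for the real arrays. The number of arrays limits the precision. Alternatives tried were blocking on replicate number, a trended or robust prior, weighting of arrays, 2 other scalings, brighter genes alone, all probe sets and leaving out each array.

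The members, lists and compartments were chosen with earlier results of these data known. The rule named members past the threshold, up to 3 per direction and family at an unadjusted p under 0.05 (or else the smallest p), the highest mean per family and a fixed set, and of each helper list up to 2 per direction; others were named to account for every member. The lists of ILC2, T cell, B cell, myeloid, mast cell and basophil, NK cell and ILC1, and ILC3 markers are summarised in the report by their summed levels or counts. Hspd1, Hspe1, Hspa9, Dnaja1, Dnajb6 and Dnajc19 have pseudogenes or related sequences named after them in the gene table, which could share probes. Pseudogenes under other names were not searched for. A value was repeated exactly on 2 or more arrays in 26 of the 79 members and in 38.8% of all genes. Figures were drawn with matplotlib 3.10.9, and the permutation test used scipy 1.17.1.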

Additional observations from a re-analysis of the deposited data

How the results depend on the processing

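Over all genes limma called 59 higher and 46 lower; an intensity trend gave 162 and 208, and genes at or above the median brightness gave 204 and 345, where 1 chaperone gene, Hspa14, was higher in each. Arrays with the same replicate number showed no shared deviation (correlations −0.070, −0.012 and −0.017), and 0 of 6 arrays correlated best with their own number. The labels do not say whether same-numbered samples were handled together. With the replicate block limma called 0 genes higher and 0 lower (1486 and 1560 at an unadjusted p under 0.05). Then 0 chaperone genes were lower, and Hspa1a was at −1.62 (limma's adjusted p = 0.114). With 1 array left out, 0 to 2 genes were higher and 0 to 1 lower over all genes, and 0 to 1 chaperone genes were lower. At an unadjusted p under 0.05, 2 to 9 chaperone genes were then higher and 2 to 6 lower. Over all 23185 genes, 1311 to 1572 were higher and 1454 to 1688 lower by that rule, against 1616 and 1834 with all arrays. The log2 difference of Hspa1a was −1.85 to −1.50 with 1 array left out. Median centring left 3 positive and 9 negative chaperone differences with an unadjusted p under 0.05, against 6 and 6. Hspa1a passed with a trend, a robust prior, array weights, median centring, cyclic loess, bright genes alone and all probe sets. Of 31 named members, 24 kept their sign in all 14 settings. The other 7 changed sign: Bag1 and Dnajb1 were 0.020 and 0.016 and Bag4 0.041 under cyclic loess, Hspa4 −0.017 under median centring, Hspa9 −0.0046, −0.020 and −0.0061 under array weights, median centring and cyclic loess, and Bag4 0.0023 under array weights. With 1 array left out, Bag5 (−0.13 with all arrays) ranged from −0.24 to 0.068, Dnaja1 from −0.020 to 0.10, Bag1 from −0.056 to 0.019, Dnajb1 from −0.076 to 0.029, Hspa4 from −0.022 to 0.041, Hspa9 from −0.027 to 0.052 and Bag4 from −0.025 to 0.022. The 2-unit heat shock element, added after the 3-unit matches were seen, was found in 17 members' promoters, against 4. Causes were not tested. Of the 79 genes, 13 lay below the array median on all arrays, which limits what can be read from them.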
